A study of Mus musculus with 2 samples.

Results

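The genes described here are 38 genes whose products carry a cell into, through and out of mitosis, of 43346 Ensembl genes in the deposited tables. They were taken from a list by gene symbol, and each was found under 1 identifier. They were measured in the hindbrain of mouse embryos of the B6NCrl strain at embryonic day 12.5, in a single untreated group with no second condition. RNA of replicate 1 came from a pool of 120 embryos and RNA of replicate 2 from a separate pool of 88 embryos, each pool holding both sexes, so individual embryos cannot be compared. Each library was made from 10 ng of total RNA with external ERCC spike-in RNAs, and both are labelled as biological replicates.

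Mitosis begins when cyclin-dependent kinase 1, held by A and B cyclins, is switched on, and it ends when the anaphase-promoting complex marks the cyclins for destruction and a contractile ring divides the cell. Many of the genes for this machinery are transcribed late in the cell cycle, under the DREAM complex and the B-Myb and FoxM1 factors, which act through a short promoter element called the cell cycle genes homology region. In the embryonic hindbrain the dividing cells are mainly the neuroepithelial progenitors beside the ventricle, while neurons that have left the cycle collect outside them. In bulk tissue, fewer cells of a type and less RNA per cell cannot be told apart.

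The libraries held 31633169 and 29766460 expected counts in replicates 1 and 2, and ERCC spike-ins took 8.39% and 10.9% of the TPM, a length-scaled abundance with a fixed total per library. All 8 genes chosen to mark hindbrain position reached 1 TPM in both libraries, against 3 of 8 forebrain genes. Markers of other cells were present, namely 7 of 8 erythroid, 8 of 9 skeletal muscle, 8 of 8 mesenchyme and 8 of 8 endothelial genes. Muscle genes were far apart in the libraries, with a summed level of 62.8 TPM in replicate 1 and 296 TPM in replicate 2.

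All 38 mitosis genes were expressed, each at 10 TPM or more in both libraries, from 680 to 10759 expected counts per gene and library. Their median level was 66.3 TPM in replicate 1 and 57.9 TPM in replicate 2, a mean of 62.1 ± 5.93 (SD, n = 2). The 15381 genes at 1 TPM or more in both libraries had medians of 17.9 and 18.2 TPM. By mean TPM the mitosis genes lay between percentiles 47.0 and 94.4 of those detected genes, with a median percentile of 81.1, and 9 of the 38 were in the top decile. Together they took 0.287% and 0.272% of the TPM. The order of the genes was nearly the same in both libraries, with a Spearman rho of 0.994 across the 38 genes, which share each library and are not independent. Of the 37 pairs of neighbours in the order by mean TPM, 17 had overlapping values in the libraries, so their order is not resolved, and 20 did not overlap.

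**Figure D1:**
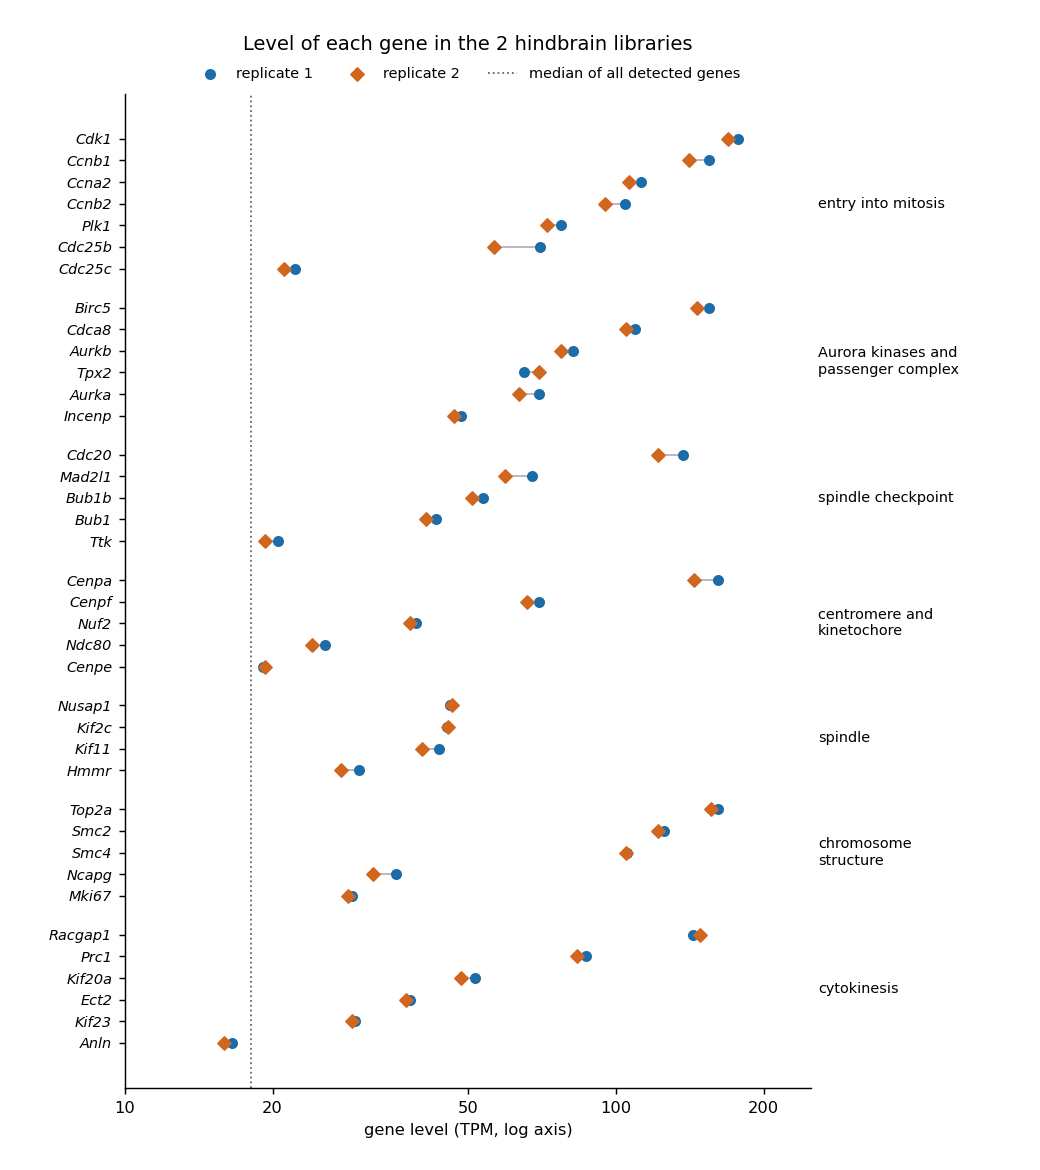
Level of each of the 38 genes on a log TPM axis, grouped by role, with circles for replicate 1, diamonds for replicate 2 and a dotted line at the mean of the detected genes' medians, 18.0 TPM. All genes but Anln lie to the right of the line in both libraries, and the points of a gene lie close together next to the range among genes.

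The kinase and cyclins that drive entry into mitosis were among the more abundant of the 38 genes. Cdk1, the catalytic subunit (chromosome 10, 69335146 to 69352938 on mm10), stood highest of all 38 genes by gene total, at 178 and 169 TPM in replicates 1 and 2. Its B-type partner Ccnb1 was at 154 and 141 TPM and the other B cyclin, Ccnb2, at 105 and 94.9 TPM. The ratio of Ccnb1 to Ccnb2 was 1.48 in each library. Ccna2, the A cyclin that acts from S phase to early mitosis, was at 112 and 106 TPM, below Ccnb1 in each library. The levels of Plk1, the kinase that promotes entry and later steps of mitosis, were 77.5 and 72.5 TPM. Of the phosphatases that remove the inhibitory phosphates from Cdk1, Cdc25b was at 69.9 and 56.4 TPM and Cdc25c at 22.3 and 21.1 TPM. Cdc25b was therefore 2.91 ± 0.331 times as abundant as Cdc25c (SD, n = 2), and it was the gene whose 2 values lay farthest apart in proportion.

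Genes of the Aurora kinases and their partners ranged from Incenp at the bottom to Birc5 at the top in each library. Aurka, the Aurora kinase of centrosomes and spindle poles, was at 69.8 and 63.6 TPM. Tpx2, which activates that kinase on spindle microtubules, was at 65.2 and 69.8 TPM, so the order of this pair changed between libraries. Aurkb, the kinase of the chromosomal passenger complex, was at 82.0 and 77.2 TPM. Its partners in the complex were unequal: Birc5 (survivin) was at 155 and 146 TPM, Cdca8 (borealin) at 109 and 105 TPM, and the scaffold Incenp at 48.3 and 46.7 TPM. Birc5 exceeded Incenp 3.17 ± 0.0588 times (SD, n = 2).

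Of the 5 checkpoint genes among the 38, Cdc20 was the most abundant. Cdc20, the activator of the anaphase-promoting complex that the checkpoint holds back, was at 137 and 122 TPM. Mad2l1, which binds Cdc20 when kinetochores are unattached, was at 67.4 and 59.4 TPM. Bub1b (BubR1), another inhibitor of Cdc20, was at 53.7 and 51.0 TPM. Its paralogue Bub1, a kinase of the kinetochore, was at 43.0 and 41.1 TPM. The ratio of Bub1b to Bub1 was 1.25 ± 0.00402 (SD, n = 2). Ttk (Mps1), the kinase that starts checkpoint signalling, was the lowest of the group at 20.5 and 19.3 TPM.

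At the centromere, Cenpa, the histone H3 variant that marks it, was at 161 and 144 TPM. Cenpf, a large protein of the outer kinetochore, was at 69.9 and 66.1 TPM. The microtubule-binding pair Nuf2 and Ndc80 had 39.1 and 38.1 TPM for the former and 25.5 and 24.1 TPM for the latter. Cenpe, a kinesin that moves chromosomes to the spindle equator, was at 19.1 and 19.3 TPM. Cenpa was thus 7.95 ± 0.671 times as abundant as Cenpe (SD, n = 2).

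The spindle genes were close to each other. Nusap1, which bundles microtubules near chromosomes, was at 45.9 and 46.5 TPM, and Kif2c, a kinesin that depolymerises microtubules at centromeres, at 45.3 and 45.6 TPM. Kif11, the kinesin that pushes spindle poles apart, was at 43.6 and 40.3 TPM. Hmmr, a spindle pole protein, was lower at 29.9 and 27.6 TPM. Values of Nusap1 and Kif2c did not overlap with those of Kif11, and the 3 genes lay between 40.3 and 46.5 TPM.

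Of the genes for mitotic chromosome structure, Top2a, the topoisomerase that untangles sister chromatids (chromosome 11, 98992943 to 99024189), was at 162 and 157 TPM. It also had the most counts of all 38 genes, 10759 and 9605. The condensin ATPases Smc2 and Smc4 were at 125 and 122 TPM and at 105 and 105 TPM. Ncapg, a regulatory subunit of condensin I, was at 35.7 and 32.0 TPM. Mki67, which encodes the Ki-67 antigen used to stain proliferating cells and coats mitotic chromosomes, was at 29.1 and 28.5 TPM, near the lower end of the 38 genes.

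The cytokinesis genes spanned the range from near the top to the bottom. Racgap1, the GTPase-activating subunit of centralspindlin, was at 144 and 149 TPM. Prc1, which bundles the microtubules of the central spindle, was at 86.8 and 83.3 TPM, and Kif20a, a kinesin of the same structure, at 51.7 and 48.5 TPM. Ect2, which activates RhoA at the division site and is recruited by Racgap1, was at 38.1 and 37.4 TPM. Kif23, the kinesin subunit of centralspindlin, was at 29.4 and 29.1 TPM. Anln (anillin), a scaffold of the contractile ring, was the lowest of all 38 genes at 16.6 and 15.9 TPM, and Racgap1 was 9.01 ± 0.445 times as abundant (SD, n = 2).

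Subunits of the same complex did not have equal RNA levels. In the NDC80 complex, which also holds Spc24 and Spc25, the highest subunit exceeded the lowest 4.10 times in replicate 1 and 4.26 times in replicate 2, with Spc25 at 105 and 103 TPM and Ndc80 the lowest. The span was 3.21 and 3.13 times in the chromosomal passenger complex, and 3.24 and 3.36 times in the mitotic checkpoint complex, where Bub3 led at 174 and 171 TPM. In condensin I it was 3.52 and 3.81 times by gene total, with Smc2 highest and Ncapg lowest. That order depends on how short transcripts are counted, as given below. For the 2 subunits of centralspindlin, the ratio of Racgap1 to Kif23 was 4.89 and 5.11. These spans were much larger than the differences between the libraries for the same genes.

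**Figure D2:**
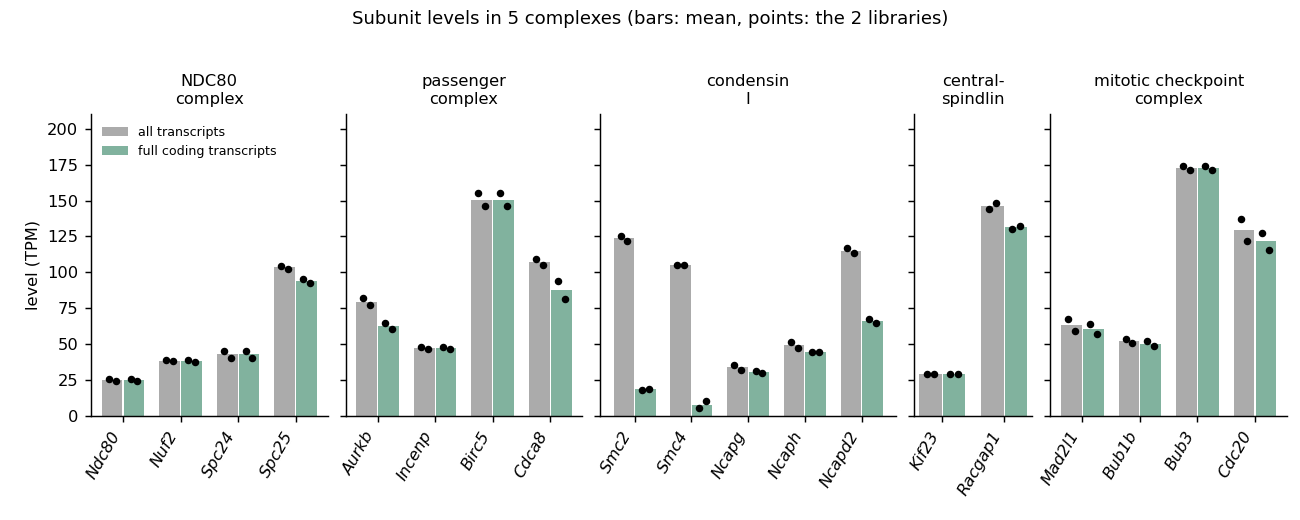
Level in TPM of each subunit of 5 complexes, as the gene total (grey) and as the sum of the transcripts that hold at least 80% of the longest annotated coding sequence (green), with bars for the mean and points for the 2 libraries. Smc2 and Smc4 have a tall grey bar and a short green bar, whereas the subunits of the NDC80 complex and centralspindlin have bars of nearly equal height.

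Paralogues of these genes with a use in meiosis were at or near 0. Ccna1, the germline A cyclin, was at 1.33 and 1.17 TPM, and Ccna2 was 87.7 ± 4.61 times as abundant (SD, n = 2). Ccnb3 and Aurkc were listed at 0 counts in both libraries, and Smc1b, a meiotic cohesin subunit, was at 0.12 and 0.09 TPM. Paralogues used in other phases or in cells at rest were well expressed. Top2b, the topoisomerase that is also present in non-dividing cells, was at 150.5 and 159 TPM, and the ratio of Top2a to it was 1.07 in replicate 1 and 0.984 in replicate 2. Cdk2 was at 56.5 and 56.1 TPM, so Cdk1 was 3.08 ± 0.0952 times as abundant. Plk2, a kinase induced by stress and neuronal activity, was at 111 and 128 TPM, above Plk1 in each library, while Plk3 was at 24.1 and 21.3 TPM and Plk4, the kinase of centriole duplication, at 33.7 and 31.6 TPM. Cdc25a was at 25.7 and 25.6 TPM and Mad2l2 at 73.4 and 69.2 TPM.

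A wider set of 86 other mitosis genes was also fully detected, at a lower median of 30.3 and 29.9 TPM. Among 25 other regulators of entry and exit, Anapc5 (316 and 328 TPM), Ube2s (284 and 271 TPM), Ube2c (278 and 239 TPM) and Arpp19 (223 and 231 TPM) led, and the kinase Mastl was lowest at 6.46 and 6.60 TPM. Anapc5, Ube2s and Ube2c belong to the anaphase-promoting complex and its ubiquitin chain-building enzymes. Among 26 other kinetochore and checkpoint genes, Zwint (343 and 337 TPM), Bub3, Hjurp (137 and 134 TPM) and Spc25 led, and Kntc1 was lowest at 9.66 and 8.95 TPM. Hjurp is the chaperone that loads Cenpa. Of 17 other condensin, cohesin and chromatin-linked genes, the highest by mean were Ncaph2 (122 and 113 TPM), Ncapd2 (117 and 113 TPM), Smc1a (84.8 and 90 TPM) and Kif22 (66.4 and 64.4 TPM, not resolved from Smc3), and the condensin II gene Ncapg2 was lowest at 11.2 and 12.5 TPM. Of 18 other spindle and cytokinesis genes, Rhoa (270.1 and 274 TPM), Tacc3 (130 and 126 TPM), Ckap5 (111 and 108 TPM) and Cdca3 (98.0 and 89.97 TPM) led, and Kifc1 was lowest at 2.59 and 3.67 TPM. The 24 DNA replication genes had a median of 57.8 and 53.9 TPM, 55.9 ± 2.77 (SD, n = 2), close to that of the 38 mitosis genes. Medians of the 12 neural progenitor genes were 69.0 and 68.8 TPM, and those of the 12 neuron genes 325 and 345 TPM.

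The gene totals sum all annotated transcripts, and the transcript tables show that short or non-coding transcripts make up much of the total for a few of the 38 genes. Transcripts annotated as protein-coding took 82.4% and 82.6% of the 38 genes' TPM, but 93.0% and 93.4% of their expected counts, since a short transcript needs few fragments for a high TPM. Coding transcripts held 90% or more of the TPM in both libraries for 26 genes. For all 28 genes with more than 1 annotated transcript the leading transcript was the same in both libraries, as it was for 90.8% of 9768 detected coding genes with several transcripts. For 36 genes the leading transcript was protein-coding. The exceptions were Smc2 and Cenpa, and 8.79% of those 9768 genes were led by a transcript that is not protein-coding.

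Smc2 (chromosome 4, 52439243 to 52488260) was led by Smc2-203, a processed transcript of 643 nt with no coding sequence, at 50.3% and 49.6% of the gene's TPM. Its full-length coding transcript Smc2-201, of 5404 nt, held 14.6% and 15.1%, or 18.3 and 18.5 TPM, though it took 1843 and 1713 of the gene's 3307 and 2956 counts. With every count placed on Smc2-201, the gene would stand at 32.9 and 31.9 TPM in place of 125 and 122 TPM.

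Smc4 (chromosome 3, 69004738 to 69034623) was led by Smc4-206, a coding transcript of 1163 nt, at 50.7% and 53.8%. The 4316 nt transcript Smc4-201 held only 5.07% and 4.09%, and Smc4-207, of 4057 nt and 24 exons, annotated as a target of nonsense-mediated decay, held 26.3% and 20.97%. Transcripts with a full coding sequence summed to 5.61 and 10.3 TPM in replicates 1 and 2, a wider gap in proportion than that of any of the 38 gene totals. They are Smc4-201, at 5.34 and 4.29 TPM, and Smc4-202, at 0.27 and 6.01 TPM, so the leading one of the pair changed between libraries. All counts placed on Smc4-201, the higher by mean, would give 47.1 and 46.5 TPM.

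Cenpf (chromosome 1, 189640606 to 189688086) was led by Cenpf-203, a coding transcript of 3001 nt, at 46.0% and 49.8%. The 11130 nt transcript Cenpf-204 took 2513 and 2080 of the gene's counts but was at 12.0 and 10.8 TPM, against a gene total of 69.9 and 66.1 TPM. Cenpa (chromosome 5, 30666777 to 30674830) was led by Cenpa-202, a target of nonsense-mediated decay, at 40.6% and 40.9%, and its coding transcript Cenpa-205 was at 58.3 and 52.6 TPM. These transcripts differ little in length, 1151 and 1354 nt, and with all counts on Cenpa-205 the gene would stay at 139 and 125 TPM. Tpx2 and Prc1 also had low leading shares, 33.5% and 44.1% for Tpx2-202 and 44.9% and 53.3% for Prc1-206. In both of these the other main transcripts carry a full coding sequence too. For Top2a, 63.2% of the level was the full-length transcript Top2a-201 in each library, and short processed transcripts of 632 and 796 nt held most of the rest.

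Counting only transcripts with at least 80% of the longest coding sequence, 33 of the 38 genes stayed within 1.5 times of their gene total and 4 moved by more than 2 times, namely Smc4 (13.2 times lower), Smc2 (6.71 times), Cenpf (5.96 times) and Cenpa (2.75 times). The median of the 38 genes was then 48.3 ± 2.35 TPM (SD, n = 2) in place of 62.1. The span of condensin I widened to 12.1 and 6.30 times, with Smc4 the lowest subunit, while that of the NDC80 complex was 3.74 and 3.84 times. The gene totals of Smc2, Smc4 and Cenpf were also more than 2 times their value with all counts on a full coding transcript. That of Cenpa was not. With counts placed that way, Smc2 (32.9 and 31.9 TPM) was close to Ncapg (34.1 and 31.8 TPM). Cdk1 led the 38 genes by gene total only. With all counts of each gene on its leading full coding transcript, Cdk1 was at 145 and 135 TPM, below Birc5 (170 and 158 TPM). It was then close to Ccnb1 (146 and 133 TPM) and Racgap1 (136 and 139 TPM), and above Cdc20 (130 and 117 TPM). The full coding transcripts of Cdk1 alone were at 116 ± 5.48 TPM (SD, n = 2), below Birc5, Ccnb1, Racgap1 and Cdc20. Retained-intron transcripts of 475 and 378 nt held most of the rest. How well fragments of these libraries distinguish such transcripts was not tested.

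**Figure D3:**
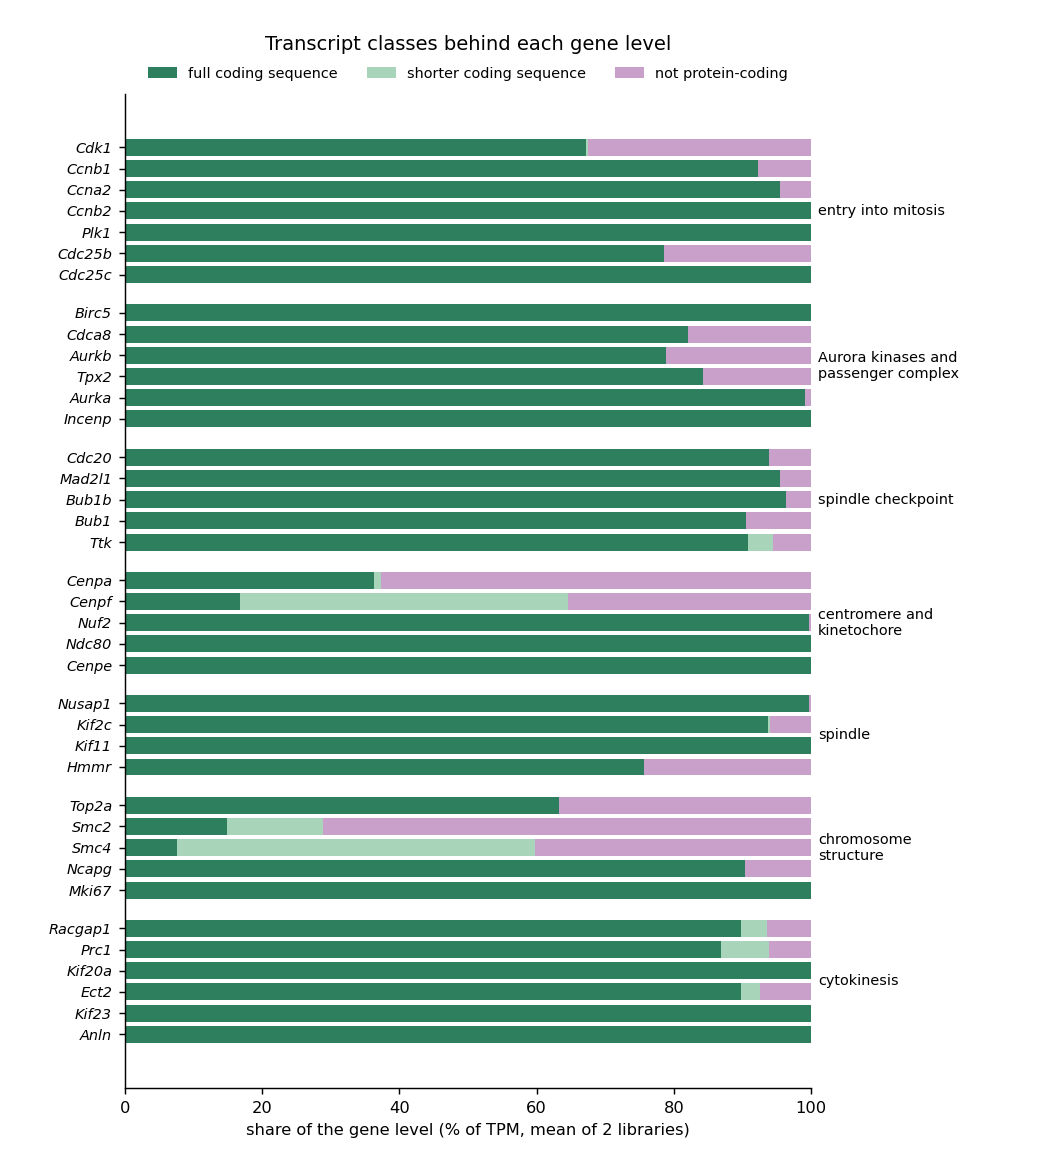
Share of each gene's TPM, as the mean of the 2 libraries, in transcripts with at least 80% of the longest annotated coding sequence (dark green), in other protein-coding transcripts (light green) and in transcripts of other types (purple). Smc4, Smc2, Cenpf and Cenpa have the shortest dark bars. Taken library by library, not as the plotted mean, 26 genes have 90% or more in the green classes in both libraries.

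The promoters of these genes share letters. The genes were listed by symbol and not by sequence, but genes and motifs were chosen with earlier results of these data known. The homology region is already known to act at many genes of this machinery, so a high share could be foreseen. RefSeq promoter windows on GRCm38.p6, the mm10 assembly, run from 250 bases before to 50 bases after a gene's start, and 31 of the 38 genes had at least 1, in 33 windows. Ccna2, Cdc25c, Tpx2, Aurkb, Incenp, Smc4 and Kif20a had none. The cell cycle genes homology region was searched as TTTGAA or TTCGAA on both strands, and 25 of the 31 genes (80.6%) held it, against 21.7% of 27025 genes with a window of the same length. In the narrower window from 100 bases before the start, the count was 24 of 31 against 9.87%. TTTGAA alone was in 23 of the 31 genes and TTCGAA, which reads the same on both strands, in 4. Among the 72 other mitosis genes with a window, 36 held the element, and among the 19 DNA replication genes, 4 did.

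The CCAAT box, bound by NF-Y and searched as CCAAT on both strands, was in 24 of the 31 genes against 41.1% of all genes, and 22 of 31 held both elements against 8.61%. GGGCGG, the core of the GC box, was in 26 of 31 against 38.2%. Both were also frequent in the nearest lists: CCAAT was in 43 of the 72 other mitosis genes and 12 of the 19 replication genes, and GGGCGG in 50 of 72 and 14 of 19. TATAAA was in 1 of 31 against 15.7% of all genes, and in 6 of the 72 other mitosis genes and 2 of the 19 replication genes. The E2F sequences TTTCCCGC and TTTGGCGC were in 1 and 0 of the 31, against 1.24% and 0.585% of all genes and 3 and 6 of the 19 replication genes. These are matches of letters in a window, and no binding was measured.

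Counting once each site that the overlapping windows of Ect2 and Prc1 share, there were 35 matches to the homology region, and 24 of them (68.6%) began within 50 bases of a start, against 25.3% of the matches over all windows. Of the matches to TTTGAA, 22 read on the strand of the gene and 8 on the other. For 22 genes a CCAAT box lay before the match nearest the start, at a median distance of 35 bases between first bases (range 9 to 153). The distance was 60 bases or less in 17 of the 22, against 47.2% of 1224 genes with the same arrangement.

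**Figure D4:**
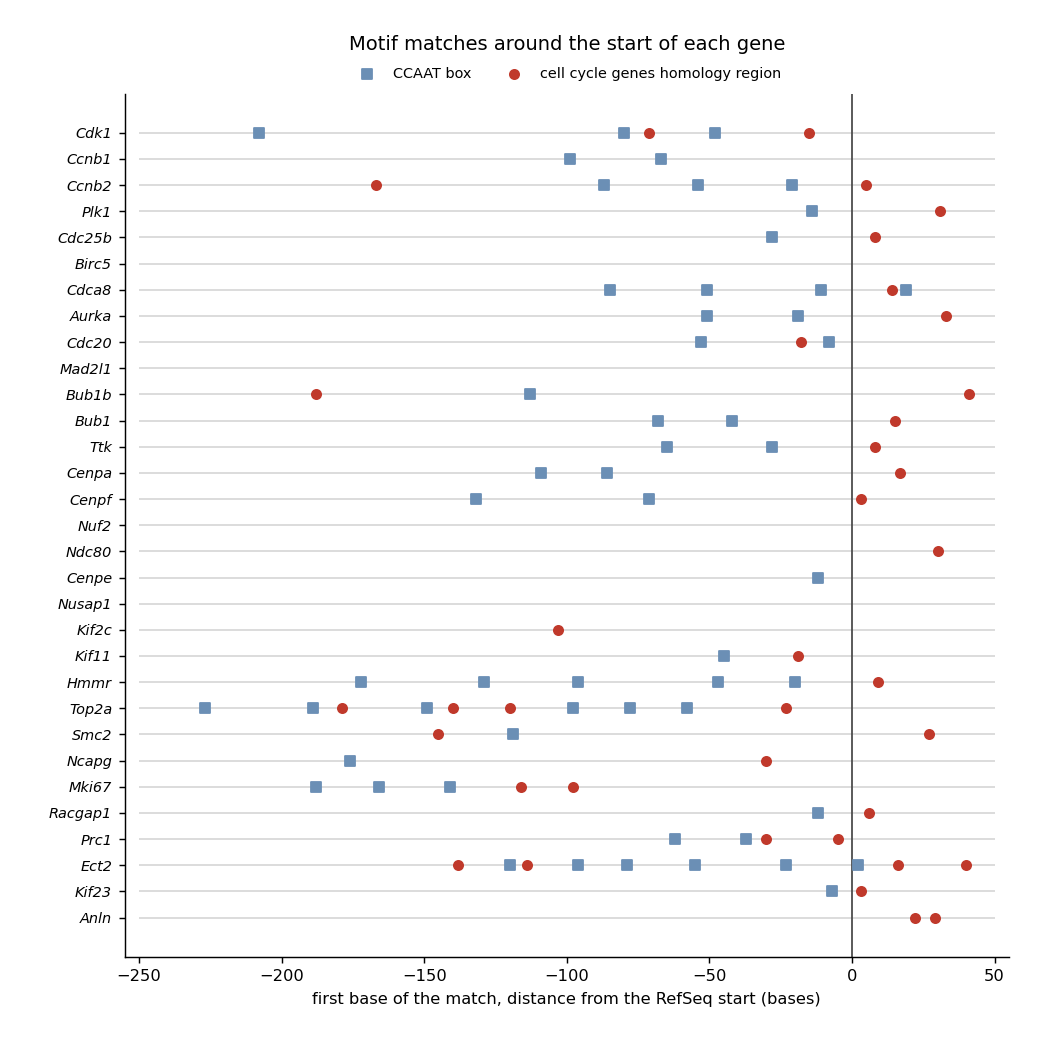
Position of each match to the homology region (red circles) and the CCAAT box (blue squares) in the RefSeq windows of 31 genes, by distance in bases from the annotated start, with genes in the order of the roles and the sites of Ect2 and Prc1 drawn once for each of their 2 windows. Most red circles lie near the vertical line at the start, many with a blue square a short way to the left, and the rows of Birc5, Mad2l1, Nuf2 and Nusap1 are empty.

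The stretches before the annotated start of 6 genes are shown because they hold the homology region outside any annotated exon. Each runs 5′ to 3′ on the strand of the gene and begins 100 bases before the RefSeq start, and capitals mark matches to the homology region (TTTGAA, or TTCAAA on the other strand) and to the CCAAT box (CCAAT, or ATTGG on the other strand). The positions are chr4:118437353-118437443 (minus strand) for Cdc20, chr10:69352939-69353012 (minus) for Cdk1, chr11:99024190-99024289 (minus) for Top2a, chr19:37376282-37376381 (plus) for Kif11, chr5:45669825-45669918 (plus) for Ncapg and chr7:135716380-135716479 (minus) for Mki67.
Cdc20: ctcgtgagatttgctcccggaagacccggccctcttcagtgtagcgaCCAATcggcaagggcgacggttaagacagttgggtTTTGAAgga
Cdk1: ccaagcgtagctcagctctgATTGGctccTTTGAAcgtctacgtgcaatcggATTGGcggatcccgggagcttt
Top2a: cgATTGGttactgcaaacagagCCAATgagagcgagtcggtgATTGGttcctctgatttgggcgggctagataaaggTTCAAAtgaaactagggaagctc
Kif11: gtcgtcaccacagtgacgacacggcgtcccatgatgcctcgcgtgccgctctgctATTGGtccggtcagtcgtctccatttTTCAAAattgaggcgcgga
Ncapg: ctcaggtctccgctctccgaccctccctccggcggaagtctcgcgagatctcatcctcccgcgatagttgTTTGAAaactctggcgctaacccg
Mki67: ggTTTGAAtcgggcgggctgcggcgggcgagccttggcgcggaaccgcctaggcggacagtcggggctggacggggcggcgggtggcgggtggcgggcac
Within these stretches Top2a has 3 CCAAT boxes before its match, Cdk1 has 1 on each side, and Cdc20 and Kif11 have 1 before theirs. The windows hold more matches than the stretches show. Cdk1 has another match at base -15 from the start, 33 bases after the CCAAT box at base -48. Top2a has further matches at bases -179, -140 and -120. The stretches of Ncapg and Mki67 hold the match with no CCAAT box, but both genes have a box farther upstream. The nearest is at base -176 for Ncapg and at base -141 for Mki67.

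In most of the other genes the match straddles or follows the annotated start, and short sites of 26 bases with the match at their centre are shown for 7 genes across the roles. They lie at chr9:70421535-70421560 (minus) for Ccnb2, chr7:122159455-122159480 (plus) for Plk1, chr2:172370523-172370548 (minus) for Aurka, chr5:30666892-30666917 (plus) for Cenpa, chr1:189688069-189688094 (minus) for Cenpf, chr11:40733414-40733439 (minus) for Hmmr and chr15:99651636-99651661 (minus) for Racgap1.
Ccnb2: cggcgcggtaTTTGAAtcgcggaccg
Plk1: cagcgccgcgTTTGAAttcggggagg
Aurka: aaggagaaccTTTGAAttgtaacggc
Cenpa: cgggtgatttTTTGAActgctggcga
Cenpf: cggcgggcagTTTGAAtcgctcgtgc
Hmmr: ttgaggtaaaTTTGAAttcaggcgag
Racgap1: ggtgcgtgatTTTGAAccggatctgg
Ccnb1, Birc5, Mad2l1, Cenpe, Nuf2 and Nusap1 held no match in these windows, and their levels ranged from 19.2 to 151 TPM on average, within the range of the genes that held one.

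Between the libraries the 38 genes differed little, and mostly in the same direction. By TPM, 33 of 38 were lower in replicate 2, against 46.5% of the 15381 detected genes. The median log2 ratio of replicate 2 to replicate 1 was -0.08 for the 38 genes and 0.01 for all detected genes. With TMM-scaled counts 35 of 38 were lower, against 50.6% of detected genes with a ratio, and the median was -0.10. The other scalings shift every gene by the same amount, so their counts follow from that shift. With TPM recomputed over Ensembl genes only, 27 of 38 were lower against 36.8% of detected genes, with medians of -0.04 and 0.05. Scaled to the spike-ins, 38 were lower against 93.8%, with medians of -0.45 and -0.36. In 37 of the 38 genes the ratio lay within 0.2 of 0 on the log2 scale, as for 86.9% of the 7282 genes of the same range of mean TPM. The 5 genes higher in replicate 2 by TPM were Tpx2, Racgap1, Nusap1, Cenpe and Kif2c.

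In a two-sided exact binomial test with Benjamini-Hochberg adjustment over 19209 genes, which allows for counting error only, 18 of the 38 had an adjusted p below 0.05. All 18 were lower in replicate 2, a direction in which 9.68% of all genes tested passed, and 20.4% passed in either direction. Among genes of the same range of mean TPM, 11.7% passed as lower. The 18 were 6 of the 7 entry genes (all but Cdc25c), 3 of 6 Aurora and passenger genes, 3 of 5 checkpoint genes, 2 of 5 centromere and kinetochore genes, 1 of 4 spindle genes, 2 of 5 chromosome structure genes and 1 of 6 cytokinesis genes. The edgeR exact test adds a common dispersion to counting error, here a coefficient of variation of 9.02%. It passed none of the 38, against 1.57% of all genes, and none had an unadjusted p below 0.05. The dispersion was estimated over all genes from the difference between these same 2 libraries. Passing none therefore does not show that the 38 genes were equal in them. Scaled to spike-in counts, all 38 passed as lower by the exact binomial test, as did 66.0% of all genes. With 1 library on each side both tests compare these libraries and not conditions.

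The 5 genes with the widest gaps by TPM ratio are given in full, with p-values from counts. By the TMM count ratio the order differs: Cdca8, at -0.17, would rank second, and Ncapg, at -0.11, would not be among the 5. Cdc25b (chromosome 2, 131186949 to 131198497) had 3077 and 2452 counts, and its TPM was lower in replicate 2 by a log2 ratio of -0.31 with a counting SE of 0.04, adjusted p = 2e-07 in the exact binomial test. Its leading transcript Cdc25b-202 held 61.3% of the TPM in replicate 1 and 72.8% in replicate 2, and the ratio from counts alone was smaller at -0.23. Mad2l1 (chromosome 6, 66535390 to 66547220) had 1786 and 1487 counts and a log2 TPM ratio of -0.18 with an SE of 0.05, exact binomial adjusted p = 0.0097. Cdc20 (chromosome 4, 118432901 to 118437352) had 4178 and 3474 counts, a log2 ratio of -0.17 and an exact binomial adjusted p = 1.25e-05. Cenpa had 3317 and 2750 counts, a log2 ratio of -0.16 and an exact binomial adjusted p = 8.98e-05. Ncapg (chromosome 5, 45669919 to 45700546) had 2326 and 2004 counts, a log2 ratio of -0.15 and an exact binomial adjusted p = 0.0483, just under the threshold. The edgeR adjusted p was 1 for each of these genes.

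**Figure D5:**
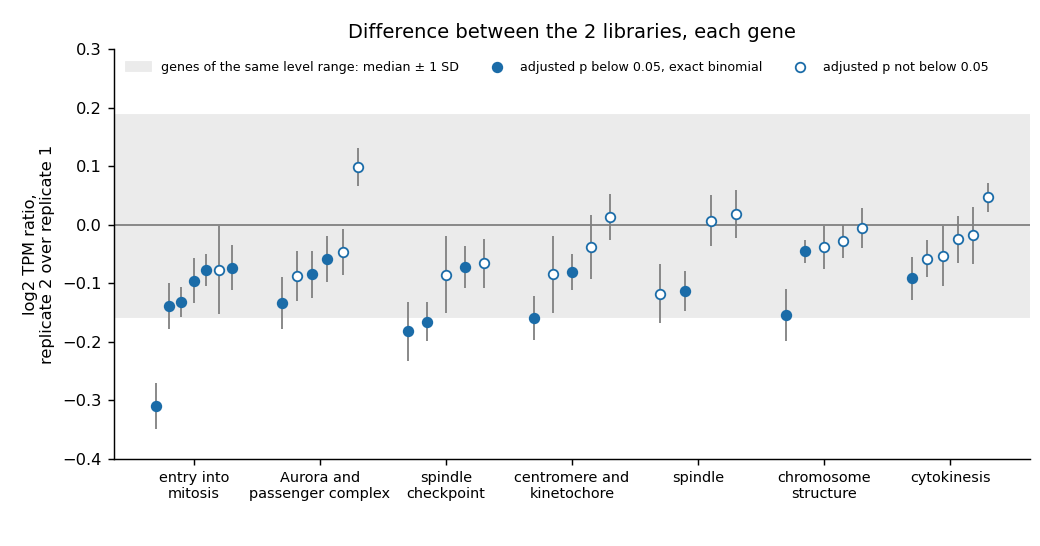
Log2 ratio of TPM in replicate 2 to replicate 1 for each of the 38 genes by role, with bars for 1 counting SE, filled points for an adjusted p below 0.05 in the exact binomial test on counts, and a grey band for the median ± 1 SD of genes of the same range of mean TPM. Cdc25b at -0.31 lies clearly below the band and most other genes lie inside it, below 0.

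Other gene lists also differed between these libraries. Of all genes tested, 9.68% passed as lower in replicate 2 and 10.7% as higher by the exact binomial test. The 24 DNA replication genes had a median log2 TPM ratio of -0.05 with 16 lower, and 7 lower against 1 higher by the exact binomial test. Of the 86 other mitosis genes, 55 were lower, 24 lower against 5 higher by that test, with a median of -0.04. Neural progenitor genes had a median of -0.09 with 9 of 12 lower, from a sum of 2934 to 2710.5 TPM, and neuron genes 0.09 with 3 of 12 lower, from 3894 to 4065 TPM. Genes of hindbrain position were all 8 higher in replicate 2, with a median ratio of 0.33 and sums of 493 and 624 TPM. By the exact binomial test 7 of the 8 passed, and Hoxb5, at 60.6 and 101.7 TPM, passed the edgeR exact test too, adjusted p = 0.0112. In the edgeR test 0.942% of all genes passed as higher. Erythroid genes summed to 10548 and 8203 TPM, mesenchyme genes to 1460 and 1876 TPM, and all 9 muscle genes were higher in replicate 2, with a median ratio of 2.24. No gene of these 6 marker lists was at 0 in either library. The part of these other cells, or of the position of the tissue, in the small differences of the mitosis genes was not tested.

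Exon bases shared with another gene touch 11 of the 38 genes. In 10 of them the other gene lies on the opposite strand, and the labels do not state the strand setting of the counting. The longest shared stretch was 977 nt, between Kif20a and Cdc23, the latter at 121 and 117 TPM. Ncapg and Lcorl shared 699 nt, Prc1 and Rccd1 670 nt, Cdc25c and Gm3550 623 nt, and Ccna2 and Exosc9 428 nt. Levels of these genes are therefore less certain than their counting error alone. Division of fragments among similar genes added little, since the deposited posterior SD was at most 0.596% of the count in any of the 38 genes.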

How the data were processed

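Per the labels, 2 libraries of 1 group were sequenced. The authors deposited a gene table and a transcript table for each on mm10 with GENCODE M4. Per the file headers these hold expected counts, which need not be whole, TPM, FPKM and each transcript's percent of its gene. Aligner, quantifier and strand setting were not given in the sources used here. Names, coordinates and transcript types came from GENCODE M21, matched on the Ensembl identifier for 42462 of 43346 genes. The numbered entries that name no gene, 0.000107% and 0.000114% of counts, were left out.

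The 38 genes, the other lists and the motifs were chosen with earlier results of these data known. All 38 genes are named, with the 4 highest and the lowest of each other mitosis list, all paralogues, and the 5 widest gaps between libraries. Expected counts were rounded, genes with 10 or more summed counts were kept, and libraries were scaled by TMM (edgeR 4.0.16, R 4.3.3). The exact binomial test used scipy 1.17.1, was Benjamini-Hochberg adjusted across the whole table, at a threshold of 0.05. It was tested on simulated counts with counting error only, which cannot show how it fares with further variation between pools. Alternatives were the edgeR exact test, DESeq2 1.42.0 size factors, library totals, spike-in scaling, count filters of 1 and 50, other TPM definitions, detection limits of 0.1, 5 and 10 TPM, and a shorter promoter window. With 2 libraries an SD is a rough estimate, and binomial p-values set the gap between 2 pools of embryos against counting error only. Counting errors assume independent molecules, although amplified fragments without molecular identifiers are not. Promoter sequences are RefSeq's. Some promoter sites are not reported here.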

Additional observations from a re-analysis of the deposited data

How the results depend on the processing

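No paired analysis was possible because the labels give 1 group. All 38 genes stayed detected at each limit tried and in each library alone, all 28 leading transcripts stayed the same with posterior percents, and 24 in place of 25 genes held the homology region in the shorter window. The count of 18 genes lower in replicate 2 was 17 or 18 with DESeq2 size factors, library totals and the other count filters, 38 with spike-in counts and 0 with the edgeR exact test. The spike-ins took a larger share of replicate 2, which lowers every gene there. The edgeR test adds to counting error a dispersion drawn from these same 2 libraries. The median of 62.1 TPM was 57.9 and 66.3 TPM in the single libraries and 60.9 with posterior values. It moved to 68.6 with TPM over Ensembl genes only. In alternatives chosen after seeing the data it was 49.7 with coding transcripts only, 48.3 with full coding transcripts only and 48.9 with all counts on the leading full coding transcript. The last 3 shift because short transcripts are left out or lengthened. Of the single genes' log2 ratios under 5 other scalings, 121 moved by less than the spread of that gene's 2 libraries and 69 by more. That spread is set by the same ratio, so the split reflects how small each ratio was and does not measure robustness. No called gene changed sign. With 2 libraries every SD is itself uncertain.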
